A study of Drosophila melanogaster with 6 samples.

Results

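The genes described here are the core cell death regulators and caspases of the fly eye: Dronc, Drice, Dcp-1, Diap1, Dark, rpr, hid, Debcl and Buffy. They were picked by name from a list of 10 symbols, and 9 of the 10 were found in the count files. Dredd2, the other symbol, matched no gene name or synonym. Of the 9 genes, 6 had a row of their own (Dronc, Drice, rpr, hid, Debcl and Buffy), and 3 were counted only in a row shared with overlapping genes. Dcp-1 shared its row with levy and pita, Diap1 with asRNA:CR45889, and Dark with asRNA:CR44390. These rows are called the Dcp-1 group, the Diap1 group and the Dark group, since their counts cannot be divided among the genes. The files held 14537 genes or groups in all.

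RNA was taken from dissected eyes of male flies aged 10 days (3 libraries) or 40 days (3 libraries) after eclosion. All flies were w and carried UAS-GFP-Msp300KASH at attP2 with rh1-GAL4 and the ry506 allele on the same chromosome, and were kept in a light and dark cycle on standard food. The rh1-GAL4 driver is active in the outer photoreceptors, whereas the RNA came from the whole eye. No flies without the transgenes were part of the comparison. The comparison asked how expression and splicing in the eye differ between the ages.

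Apoptosis in flies runs through a chain in which each step releases the next. The IAP antagonists encoded by rpr and hid bind Diap1, an inhibitor of apoptosis protein, and so free the caspases that Diap1 holds in check. Dronc, the initiator caspase, is activated on the scaffold protein Dark and then cleaves the effector caspases Drice and Dcp-1, which dismantle the cell. Debcl and Buffy are the fly's Bcl-2 family proteins. In the developing eye this pathway removes surplus cells between the ommatidia, and it also acts in photoreceptor degeneration. Much of the control of Diap1 and the caspases is exerted on proteins, which RNA counts do not measure.

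The day 10 libraries held 8946125 to 15029770 gene counts each and the day 40 libraries 8476220 to 12686867. Summed levels of 10 photoreceptor genes were 75122 to 110821 CPM, the usual scaling of counts to the total of the library, at day 10 and 79775 to 91918 at day 40. That sum is mostly ninaE. Of the 10 genes, 6 had log2 changes above 0 and 4 below, and none was called in edgeR. DESeq2 called ninaA, counted with CG15824 (log2 change 0.79, adjusted p = 0.0235), whose ages did not overlap. The sum of 5 pigment and cone cell markers was 336 to 423 CPM at day 10 and 204 to 221 at day 40, and that of 6 hemocyte markers 847 to 1231 CPM and 672 to 764 CPM. Of the 5 pigment and cone cell markers 1, and of the 6 hemocyte markers 4, were counted in rows shared with other genes. In the pigment and cone cell list and in the hemocyte list, 3 genes each lay below 0. In the first, w (log2 change -1.37) and Crys (-1.93) were called, and in the other Hml (-1.29). The gene w encodes an eye pigment transporter and is mutant in these flies, although the UAS transgene carries a w marker. The rest of the pigment and cone cell list (2 of 5 above 0) and of the hemocyte list (3 of 6 above 0) was not called. Sums for glia (1644 to 1971 and 1696 to 1885), brain neurons (4337 to 4920 and 4624 to 4904), fat body (8669 to 11106 and 8574 to 9324) and muscle (586 to 1226 and 639 to 671) overlapped between the ages, and no marker was at 0 in all libraries. Within the fat body list, whose sum is mostly Apolpp (counted with Zyx), Lsp2 (log2 change -1.15) and Yp1 (-3.01) were called lower at day 40. Lsp2 was counted with asRNA:CR11538 and Yp1 with asRNA:CR45601. The Yp1 counts, divided by the library's size factor, were 341, 536 and 1981 at day 10 and 205, 140 and 28.7 at day 40. All 5 muscle markers lay below 0. Their sum was 1226 CPM in day 10 replicate 3 and 586 to 671 CPM in the other libraries. None of the 5 was called in edgeR, and DESeq2 called Act88F (log2 change -1.74, adjusted p = 0.0604), whose ages overlapped. The part of these markers in the values below was not tested, and in a whole eye fewer cells of a type and less RNA per cell cannot be told apart. Day 10 replicate 1 stood apart from the other libraries, with the lowest share of junction counts (21.06% of gene counts, against 23.69% to 27.38%). It held the highest or lowest level of 49.4% of the 9255 genes tested, against 22.2% to 40.2% for the other libraries. The changes of the 9 cell death genes and of the lowest-p feature of each are therefore also given without day 10 replicate 1.

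None of the 9 genes or groups passed the test for a change between the ages in edgeR's quasi-likelihood test with a threshold of 0.1 on the adjusted p. Over all genes tested, 2.14% were called higher and 1.98% lower at day 40, or 4.12% in either direction. An unadjusted p under 0.05 was found for 2 of the 9, the Dcp-1 group and the Diap1 group, against 14.3% of all genes. The same 2 groups were those whose normalized counts did not overlap between the ages, which held for 20.2% of all genes. In DESeq2, 1 of the 9 was called, the Dcp-1 group, against 6.22% of all genes. That row also holds levy and pita, so its values cannot be assigned to Dcp-1 itself. The log2 changes of the 9, day 40 over day 10, lay between -0.54 and 0.48 with a median of -0.06, beside a median of -0.01 over all genes.

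**Figure D1:**
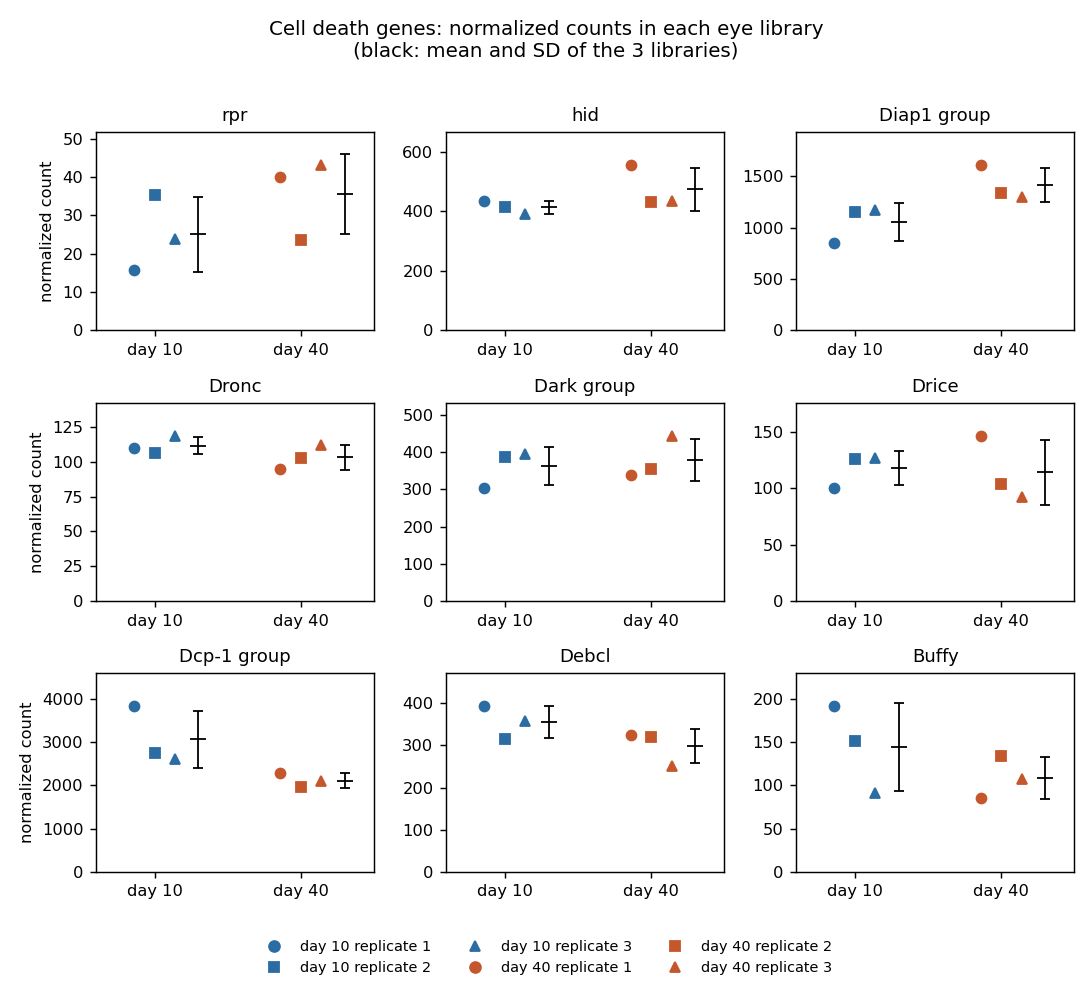
Normalized counts (y axis, counts divided by the library's size factor, starting at 0) of the 9 genes or groups in each library at day 10 (blue) and day 40 (orange), with the mean and SD of the 3 libraries of an age in black. The values at the ages overlap for every gene except the Diap1 group, where day 40 lies above day 10, and the Dcp-1 group, where day 40 lies below.

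The IAP antagonists stand at the top of the chain. rpr (reaper, FBgn0011706) is a short gene at 3L, 18397535 to 18398435 of Release 6, and is switched on in cells that are about to die. It had raw counts of 12, 46 and 32 in the 3 libraries of day 10, against 30, 21 and 51 in those of day 40. Divided by size factors, so that libraries of different depth can be compared, these were 15.9, 35.3 and 23.9 normalized counts at day 10 and 40.0, 23.5 and 43.1 at day 40. Both ages thus held libraries near 24, and the ranges overlapped. rpr had a log2 change of 0.48 with a 95% interval of -0.44 to 1.41 (edgeR adjusted p = 0.676, n = 3 per age), which is a range of 0.737-fold to 2.66-fold. The count of 12 in day 10 replicate 1 alone has a 95% Poisson interval of 6.20 to 21.0, which covers counting error only. Without that library the log2 change of rpr was 0.27, and leaving out each of the others in turn gave 0.31 to 0.79.

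hid (head involution defective, FBgn0003997) lies in the same stretch of the chromosome, at 3L, 18167745 to 18185641, with 2 annotated transcripts. Its protein is the antagonist that Egfr signaling restrains in the eye. Normalized counts of hid were 436, 414 and 393 at day 10 and 556, 432 and 434 at day 40. The highest value was that of day 40 replicate 1, and the other 2 day 40 libraries lay within the day 10 range. hid had a log2 change of 0.19 with a 95% interval of -0.11 to 0.49 (edgeR adjusted p = 0.596). Leaving out day 10 replicate 1 gave 0.23, and leaving out day 40 replicate 1 gave 0.07. The mean was 415 ± 21.7 at day 10 and 474 ± 70.9 at day 40 (SD, n = 3).

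Near rpr and hid lie grim (3L, 18302719 to 18304417) and skl (3L, 18438561 to 18439942), which encode further IAP antagonists. grim, counted together with asRNA:CR45974 and lncRNA:CR45975, had raw counts of 10, 45 and 27 at day 10 against 26, 26 and 51 at day 40, numbers that lie close to those of rpr in each library. skl had 43.6, 53.7 and 38.8 normalized counts at day 10 and 121, 63.8 and 54.1 at day 40, so that its ages did not overlap, by a gap of less than 1 count. The log2 change was 0.63 for the grim group (edgeR adjusted p = 0.561) and 0.79 for skl (edgeR adjusted p = 0.328). HtrA2, a mitochondrial protease that can cleave Diap1, had 91.2, 103 and 112 normalized counts at day 10 and 157, 125 and 150 at day 40. Its ages did not overlap either, and its log2 change was 0.49 (edgeR adjusted p = 0.263). All 3 of these genes had estimates above 0, against 48.9% of all genes, and none was called in edgeR or DESeq2. Of the 3, 2 had an unadjusted edgeR p under 0.05 (14.3% of all genes) and 2 did not overlap between the ages (20.2% of all genes).

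Diap1 (FBgn0260635; 3L, 16038410 to 16051034) is the ubiquitin ligase that binds and inhibits the caspases, and it is the target of all the antagonists above. The annotation places asRNA:CR45889 inside it, at 16042395 to 16042968. The Diap1 group had 846, 1153 and 1170 normalized counts at day 10 and 1608, 1334 and 1299 at day 40. Every day 40 library lay above every day 10 library. The fitted level was 1.33-fold that of day 10 with a 95% interval of 1.05 to 1.68, a log2 change of 0.41, which did not pass the test after adjustment over all genes (edgeR adjusted p = 0.238, DESeq2 adjusted p = 0.186). The lowest value was that of day 10 replicate 1, and without it the log2 change was 0.28 (edgeR adjusted p = 0.331).

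Other proteins with a BIR, the domain that binds caspases in Diap1, were measured from a list of 3. Bruce, a very large ubiquitin-conjugating enzyme, had a log2 change of 0.11, and Diap2, which acts mainly in immune signaling and was counted with bug and Mlf, one of -0.13 (edgeR adjusted p = 0.737 and 0.689). None of the 3 was called in edgeR or DESeq2, and none had an unadjusted p under 0.05. Of 5 listed ubiquitin regulators of Diap1 and Dronc, 4 could be tested and none was called by either tool or had an unadjusted p under 0.05. The lowest p-values of this list were those of morgue, which promotes loss of Diap1 and was counted with CG15432 (log2 change 0.13, edgeR adjusted p = 0.806), and of Roc1b, a RING subunit of a ubiquitin ligase counted with Cdc5 (log2 change 0.08, edgeR adjusted p = 0.878).

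Dronc (FBgn0026404; 3L, 9968479 to 9971002) is the fly's apical caspase, with the place that caspase-9 has in mammals. Its normalized counts were 110, 107 and 119 at day 10 and 94.7, 103 and 112 at day 40. The ages overlapped, and the means were 112 ± 6.28 and 103 ± 8.87 (SD, n = 3). Dronc had a log2 change of -0.11 with a 95% interval of -0.53 to 0.30 (edgeR adjusted p = 0.856). It was -0.12 without day 10 replicate 1 and ranged from -0.19 to -0.05 over all libraries left out in turn.

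Dark (FBgn0263864; 2R, 17020027 to 17026703) is the fly counterpart of Apaf-1 and forms the apoptosome on which Dronc is activated. The antisense gene asRNA:CR44390 covers 17023652 to 17026993 and so reaches past its end. The Dark group had 305, 388 and 395 normalized counts at day 10 and 339, 355 and 445 at day 40, ranges that overlapped. Its log2 change was 0.06 with a 95% interval of -0.31 to 0.43 (edgeR adjusted p = 0.924). The sign of this estimate turned when day 10 replicate 1 (log2 change -0.04) or day 40 replicate 3 (-0.08) was left out, and it reached 0.15 without day 10 replicate 3. Of the other apoptosome and cytochrome c genes listed, 2 of 3 had a row. Cyt-c-d, a cytochrome c counted with CG31808, had a log2 change of -0.26 (edgeR adjusted p = 0.431), and Tango7, a translation initiation factor subunit that also binds Dronc, one of -0.12 (edgeR adjusted p = 0.700). Neither was called in edgeR or DESeq2 or had an unadjusted p under 0.05. The ages did not overlap for the Cyt-c-d row and did for Tango7 (20.2% of all genes did not overlap).

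Drice (FBgn0019972; 3R, 29799658 to 29801584) is the main effector caspase. Its normalized counts were 100, 126 and 127 at day 10 and 147, 104 and 92.1 at day 40. The day 40 libraries held both the highest and the lowest value. The log2 change of Drice was -0.06 with a 95% interval of -0.56 to 0.44 (edgeR adjusted p = 0.944), and its sign turned when any of 3 libraries was left out (day 10 replicate 3, 0.01; day 40 replicate 2, 0.0040; day 40 replicate 3, 0.07). Leaving out day 10 replicate 1 gave -0.16, and leaving out day 40 replicate 1 gave -0.26.

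Dcp-1 (FBgn0010501; 2R, 23551313 to 23553547) is the other effector caspase. It lies within the span of pita (23548967 to 23554712), which encodes a zinc finger protein, and levy (23548239 to 23548982), which encodes a cytochrome c oxidase subunit, overlaps the near end of pita. The Dcp-1 group had 3833, 2754 and 2625 normalized counts at day 10 and 2288, 1962 and 2092 at day 40. Every day 40 library lay below every day 10 library. The fitted level was 0.688-fold that of day 10 with a 95% interval of 0.542 to 0.872, a log2 change of -0.54. This difference did not pass the edgeR threshold (adjusted p = 0.125) and did pass it in DESeq2 (adjusted p = 0.0329). The highest of the 6 values was that of day 10 replicate 1, and without that library the log2 change of the Dcp-1 group was -0.35 (edgeR adjusted p = 0.163).

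The row of the Dcp-1 group was made up of 12 exonic parts, which are stretches of exon shared by a fixed set of transcripts, and they carried no positions in the files. Part E2 held most of the counts, with 3416, 2362 and 2110 normalized counts at day 10 and 1876, 1633 and 1772 at day 40. The other 9 parts after E3 summed to 562, 497 and 669 at day 10 and 469, 396 and 389 at day 40. In both sets the ages did not overlap. In parts E1 and E3, day 10 replicate 1 stood apart from the other libraries. E1 had 209 normalized counts in day 10 replicate 1 and 552 to 838 in the other 5 libraries, and E3 had 1355 in day 10 replicate 1 and 275 to 415 in the others. Which of these parts belong to Dcp-1 is not given in the sources used here, so no level or change of Dcp-1 by itself was derived. In genes with positions, the parts are numbered in order of position. Of the genes in the shared row, levy lies lowest (from 23548239), and Dcp-1 starts at 23551313. By that order, low-numbered parts such as E2 would lie toward levy, which was not tested.

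**Figure D2:**
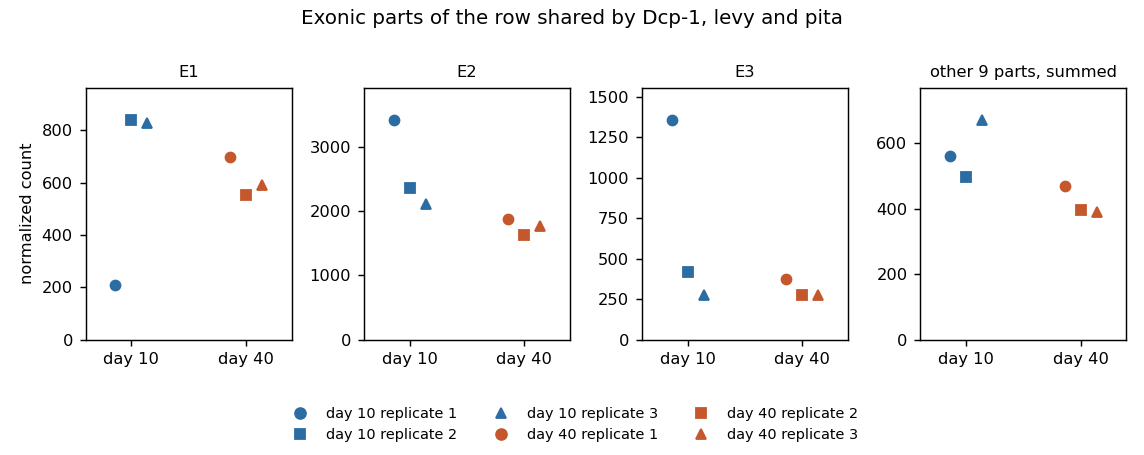
Normalized counts (y axes, each from 0) in each library of exonic parts E1, E2 and E3 and of the other 9 parts, summed, in the row shared by Dcp-1, levy and pita. Day 40 lies below day 10 in E2 and in the summed parts, while in E1 and E3 day 10 replicate 1, at 209 and 1355, lies far from the other libraries.

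From a list of 4 further caspases, 3 could be tested, each within a shared row, and none was called in edgeR or DESeq2. Damm, counted with CG42531, had 6.61, 8.44 and 8.22 normalized counts at day 10 and 13.3, 14.6 and 36.3 at day 40. The ages did not overlap at these low counts, and the log2 change was 1.46 (edgeR adjusted p = 0.261), with the only unadjusted p under 0.05 of this list. Strica, a caspase with a long prodomain counted with Pngl, had a log2 change of 0.14 (edgeR adjusted p = 0.685). Dredd, the caspase of the Imd immune pathway, was counted with Mybbp1A and had a log2 change of 0.12 (edgeR adjusted p = 0.833). Of 6 caspase-linked nucleases and inhibitors, none was called by either tool, and 3 lay above and 3 below 0. Drep2, of the family of DNA fragmentation factors, had a log2 change of -0.33 (edgeR adjusted p = 0.267, the only unadjusted p under 0.05 of the list), and EndoG, a mitochondrial nuclease counted with CCT5, one of 0.43 (edgeR adjusted p = 0.355). Of the 6, only Drep2 did not overlap between the ages (20.2% of all genes).

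The fly has 2 genes of the Bcl-2 family. Debcl (FBgn0029131; 2R, 6648654 to 6652842) is the member that promotes death. Its normalized counts were 393, 315 and 358 at day 10 and 325, 319 and 252 at day 40. The lowest value was that of day 40 replicate 3, and the other 2 day 40 libraries lay within the day 10 range. Debcl had a log2 change of -0.26 with a 95% interval of -0.60 to 0.09 (edgeR adjusted p = 0.514). Leaving out day 10 replicate 1 gave -0.18, and leaving out day 40 replicate 3 gave -0.15.

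Buffy (FBgn0040491; 2R, 11679492 to 11688557) is the member that mostly protects cells. It had 192, 151 and 91.1 normalized counts at day 10 and 85.3, 134 and 107 at day 40. The day 10 libraries differed from each other by more than 2-fold, and the day 40 values fell mostly within their range. The log2 change was -0.39 with a 95% interval of -1.03 to 0.25 (edgeR adjusted p = 0.612), and -0.15 without day 10 replicate 1, which held the highest value. Leaving out day 10 replicate 3 gave -0.63, and leaving out day 40 replicate 1 gave -0.24.

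**Figure D3:**
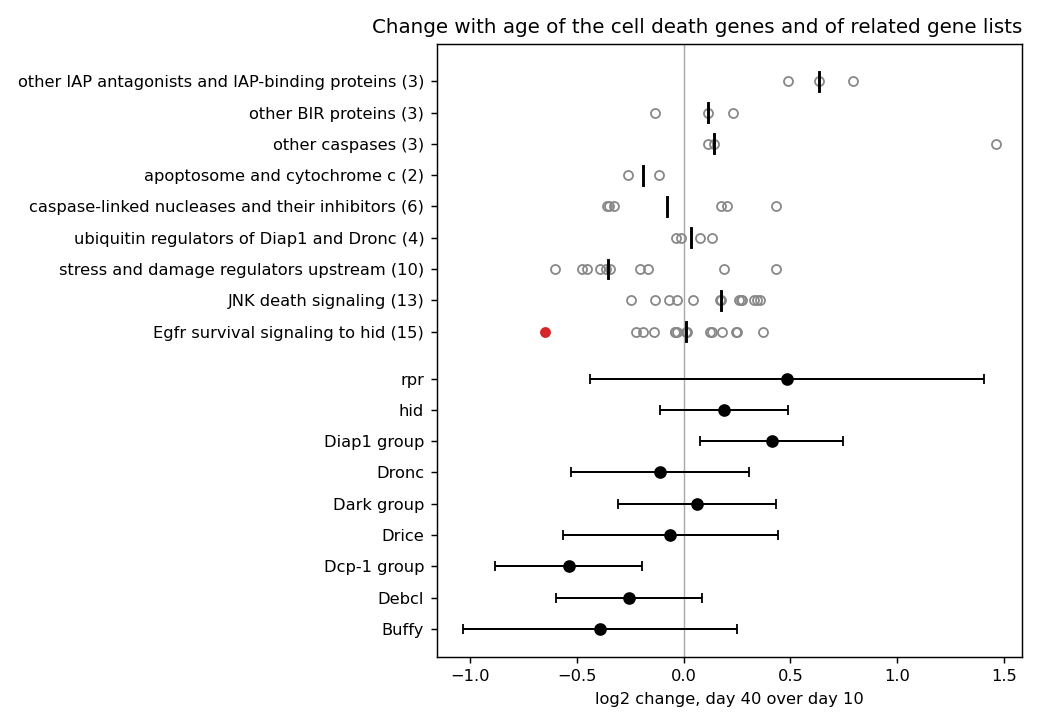
Log2 change with age (x axis, day 40 over day 10) of the 9 genes or groups, as black points with 95% intervals, and of the tested genes of 9 related lists, as circles with the median of each list as a black bar and the number tested in brackets. The red point is pnt, the only gene of the related lists past the adjusted threshold of 0.1 in edgeR. Among the 9, the intervals of the Diap1 group and the Dcp-1 group do not reach 0.

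Counts of different genes can be set side by side only per length, which was possible for the 6 genes with rows of their own. At day 10, Debcl had 18.8 ± 2.75 CPM per kb of exon (SD, n = 3), Buffy 12.4 ± 3.31, hid 9.39 ± 0.574, Drice 5.61 ± 1.18, Dronc 5.08 ± 0.838 and rpr 2.54 ± 0.968. At day 40, these levels were 15.6 ± 1.72 for Debcl, 10.6 ± 1.41 for hid, 9.48 ± 2.13 for Buffy, 5.34 ± 1.22 for Drice, 4.64 ± 0.528 for Dronc and 3.57 ± 1.11 for rpr. The order of the genes was thus the same at both ages except for hid and Buffy, whose ranges overlapped at each age. Drice and Dronc overlapped at both ages as well, and Dronc and rpr at day 40. The remaining neighbors in this order did not overlap. The initiator and the main effector caspase were therefore measured at like levels per length, below both Bcl-2 family genes, and rpr was the lowest of the 6. The mean over all libraries lay above that of 80.1% of the 11618 single genes with counts for Debcl and of 54.3% for rpr. The median single gene had a level of 2.10.

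**Figure D4:**
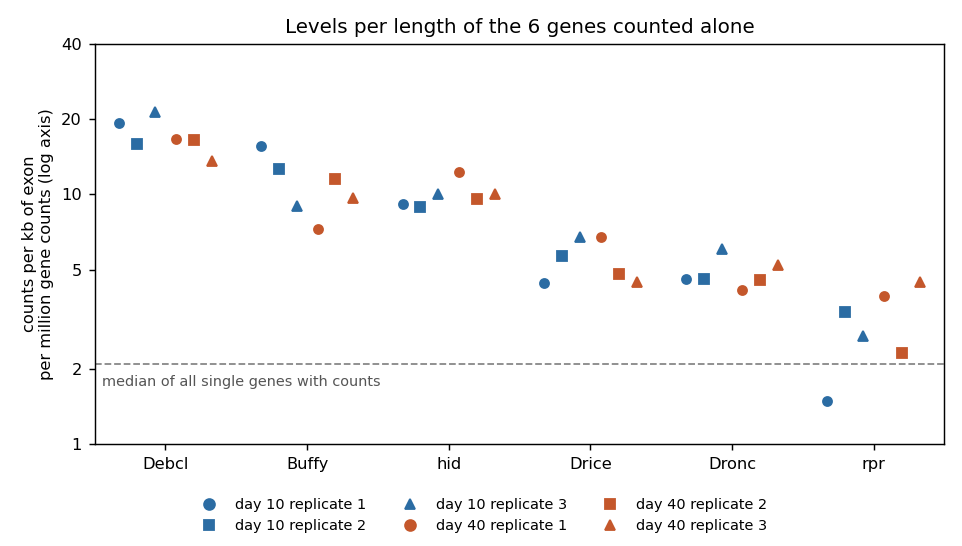
Level of the 6 genes with rows of their own in each library (y axis, CPM per kb of exon, log axis), from the highest mean over all libraries on the left to the lowest on the right. Debcl lies above the other genes at each age and rpr has the lowest mean at each age, with day 10 replicate 1 below the dashed line that marks the median of all single genes with counts (2.10).

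Splicing was measured as usage, which relates each exonic part or splice junction to its gene, as counts of the feature in percent of the gene count of that library. rpr and Drice each consist of a single exonic part, so that usage does not apply to them. The other 7 genes or groups had 75 features that reached the minimum for testing, a mean of 5 normalized counts. None of the 75 passed an adjusted p of 0.05 in edgeR or DESeq2, and 1 had an unadjusted edgeR p under 0.05. Over all 96111 features tested, 0% passed in edgeR, 0.0645% passed in DESeq2 and 3.33% had an unadjusted edgeR p under 0.05. Usage of 3 of the 75 did not overlap between the ages, against 10.1% of all features. Day 10 replicate 1 held the highest or lowest usage of 50 of the 75 features, or 66.7%, and of 61.9% of all features.

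The feature with the unadjusted p under 0.05 was junction J17 of the Dcp-1 group. Its raw counts were 9, 23 and 38 at day 10 against 4, 4 and 5 at day 40, which were 0.31%, 0.64% and 1.08% of the row at day 10 and 0.23%, 0.23% and 0.20% at day 40. Its use was low in all libraries and lower in every day 40 library. The log2 change in usage was -1.56 with a 95% interval of -2.75 to -0.37 (edgeR adjusted p = 1.00). Whether this junction lies in Dcp-1, levy or pita is not given in the sources used here.

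Dronc has 2 exonic parts joined by 1 junction. E1 (3L, 9968479 to 9969334, 856 bp) took 42.2%, 33.8% and 44.7% of the Dronc count at day 10 and 32.4%, 23.9% and 28.6% at day 40. Every day 40 value was lower, with means of 40.2% ± 5.68 and 28.3% ± 4.25 (SD, n = 3). The difference did not pass the test, with a log2 change in usage of -0.77, a 95% interval of -1.68 to 0.14 and an edgeR adjusted p of 1.00. E2 (3L, 9969844 to 9971002) took between 59.7% and 81.5% in the 6 libraries. The junction between the parts had 1 to 7 counts per library, too few to be tested.

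hid has 5 exonic parts, and counts were spread unevenly over them. E5 (3L, ending at 18185641, 850 bp) had 308 normalized counts per kb, E4 229, E3 83.3 and E2 70.9. E1, which is 1828 bp long and belongs to 1 of the 2 annotated transcripts, had 38.4. E1 took 16.0% ± 6.20 of the hid count at day 10 and 16.1% ± 4.33 at day 40 (SD, n = 3), a difference well below the spread between libraries. The lowest p among the features of hid was that of junction J7 (log2 change in usage 0.63, edgeR adjusted p = 1.00), which had 4 to 16 counts per library.

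Debcl and Buffy have 3 and 5 exonic parts in 1 annotated transcript each. For Debcl the lowest p was that of junction J4 (log2 change in usage 0.35, edgeR adjusted p = 1.00). Junction J5 of Debcl had 3 and 6 counts in the replicate 1 libraries of day 10 and day 40, and 20 to 49 in the other 4 libraries. In Buffy, part E5 took 46.2% of the count in day 10 replicate 1 and 19.8% to 31.7% in the other libraries, and part E3 took 8.28% there and 15.6% to 29.4% in the others. The usage of these parts thus differed more between libraries of an age than between the ages, and the lowest p of Buffy was that of junction J7 (log2 change in usage -0.59, edgeR adjusted p = 1.00).

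**Figure D5:**
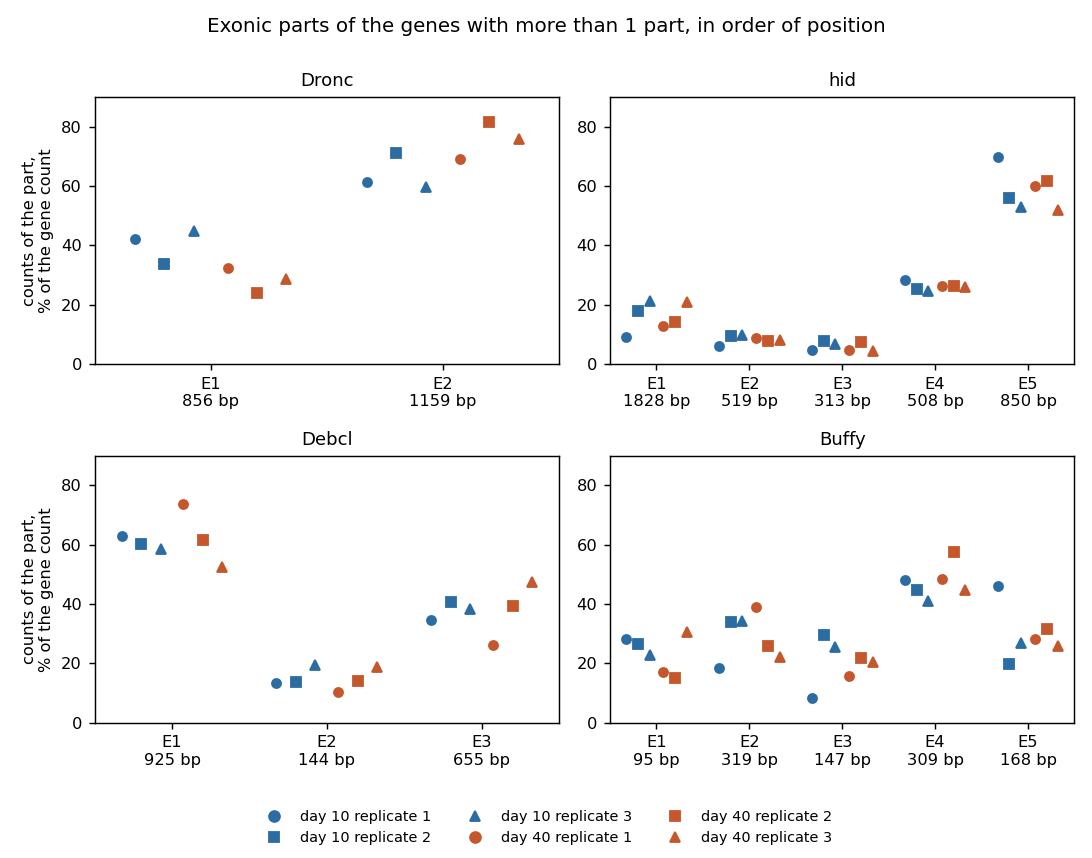
Counts of each exonic part as a percentage of the gene count (y axes, from 0) in each library for Dronc, hid, Debcl and Buffy, with the parts in order of position and their lengths below. Part E1 of Dronc is lower in all day 40 libraries (23.9% to 32.4%) than in the day 10 libraries (33.8% to 44.7%), and the other parts overlap between the ages.

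In the Diap1 group, 14 features were tested. Part E1 held 83.7% to 84.8% of the count at day 10 and 78.2% to 86.1% at day 40. The lowest p was that of junction J14 (log2 change in usage -0.50, edgeR adjusted p = 1.00). In the Dark group, 22 features were tested and the lowest p was that of part E15 (log2 change in usage 0.95, edgeR adjusted p = 1.00), which had 1 to 23 counts per library. Part E18 of the Dark group did not overlap between the ages, with 2.60% to 5.67% at day 10 and 5.89% to 5.99% at day 40. Without day 10 replicate 1, the log2 changes in usage were -1.94 for J17 of the Dcp-1 group, -0.72 for E1 of Dronc, 0.45 for J7 of hid and 0.54 for J4 of Debcl. They were -0.96 for J7 of Buffy, -0.56 for J14 of the Diap1 group and 0.68 for E15 of the Dark group, and the lowest edgeR adjusted p of these 7 features was then 0.455.

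Signals that act on the cell death genes were read from lists chosen by name. Over these and the lists above, 59 of 63 genes could be tested, 32 lay above 0 and 27 below (54.2% above 0, against 48.9% of all genes), and the median log2 change was 0.04. In edgeR 1 of the 59 was called, against 4.12% of all genes, and DESeq2 called 2, against 6.22%. Those with an unadjusted p under 0.05 numbered 14, where the share over all genes was 14.3%, and 22 did not overlap between the ages, where that share was 20.2%.

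The gene called in edgeR was pnt (pointed), the transcription factor that carries Egfr signals to the genome. It had 1153, 929 and 1331 normalized counts at day 10 and 708, 762 and 712 at day 40. All day 40 libraries lay below the day 10 range, and pnt fell by 0.65 on the log2 scale (95% interval -0.99 to -0.32, edgeR adjusted p = 0.0628). The call was lost, with adjusted p-values between 0.128 and 0.226, when day 10 replicate 3 or any 1 of the day 40 libraries was left out. The other gene called in DESeq2 was S (Star), which helps to release the Egfr ligand Spitz. S had 2122, 2196 and 2018 normalized counts at day 10 and 2516, 2965 and 2716 at day 40, with no overlap and a log2 change of 0.37 (edgeR adjusted p = 0.133, DESeq2 adjusted p = 0.0852). The 15 Egfr genes tested had a median log2 change of 0.01, with 8 above 0 and 7 below.

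Among 13 genes of the JNK pathway, a stress kinase cascade that can induce hid and rpr, none was called in edgeR or DESeq2. Of the 13, 3 had an unadjusted edgeR p under 0.05 (14.3% of all genes), and 3 were counted in rows shared with other genes. The median log2 change was 0.17, with 9 above 0 and 4 below, and 8 of the 13 did not overlap between the ages (over all genes, 48.9% lay above 0 and 20.2% did not overlap). Tab2, an adaptor of the kinase Tak1, had a log2 change of 0.36 (edgeR adjusted p = 0.194). puc, a phosphatase that JNK induces and that shuts JNK off, had 2186, 2101 and 1743 normalized counts at day 10 and 2571, 2667 and 2354 at day 40, a log2 change of 0.33 (edgeR adjusted p = 0.208). Among 10 stress and damage regulators, none was called by either tool, and 4 had an unadjusted p under 0.05 (14.3% of all genes). Of the 10, 2 lay above 0 (48.9% of all genes) and 8 below, with a median log2 change of -0.35. The ages did not overlap for 5 of the 10 (20.2% of all genes). Another 5 were counted in rows shared with other genes. All of these shared rows lay below 0, and 1 of them was among the 4 with an unadjusted p under 0.05. Rbf, a retinoblastoma family protein, had a log2 change of 0.43 (edgeR adjusted p = 0.122), and chrb, an inhibitor of TOR signaling, one of -0.36 (edgeR adjusted p = 0.216). With neither tool did these lists hold a called gene, so these medians are a description of the estimates only.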

How the data were processed

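The files hold raw counts of genes, exonic parts and splice junctions for each library, which the authors deposited in the layout of JunctionSeq. Their processing notes name Trimmomatic, TopHat and the build BDGP6, and strand use in the counting is not given in the sources used here. Their table of comparisons was deposited too, and only feature positions and lengths were taken from it. Its p-values, log2 fold changes and normalized signal means were not used. Positions of genes in shared rows are from RefSeq, Release 6. The extents of the 6 genes with rows of their own were identical in both.

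Gene counts were tested with edgeR 4.0.16 (R 4.3.3) by the quasi-likelihood test with TMM normalization and the filterByExpr filter, over all genes, with Benjamini-Hochberg adjustment and a threshold of 0.1. Usage was tested on pairs of counts (feature and the remaining counts of the gene), with library as a term, over all features that reached a mean of 5 normalized counts, shared rows included, at a threshold of 0.05. In the few junctions whose count exceeded that of their gene the rest was set to 0. For normalized counts, median-ratio size factors were used. DESeq2 1.42.0 was the alternative for both tests. Both tests were checked on simulated data with changes larger than any estimated for the cell death genes. That check does not show how often smaller changes would be found. The labels name biological replicates, 3 per age. An exact permutation test cannot go below p = 0.1 in this design.

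The genes and lists were chosen with earlier results of these data known. All 9 genes are described. Of other lists, genes past the threshold are named and otherwise the 2 with the lowest p. Of usage, features with an unadjusted p under 0.05 are named and otherwise the lowest p of each gene. The grim group, other features and markers were described after their values were seen.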

Additional observations from a re-analysis of the deposited data

How the results depend on the processing

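The number of genes called in edgeR was 381, and 601 in DESeq2 and 221 at a threshold of 0.05. It ranged from 116 to 459 when 1 library was left out, with 122, 116 and 146 calls without day 40 replicates 1, 2 and 3. Usage calls numbered 0 in edgeR, 62 in DESeq2, 2 with shared rows left out and 2 at a threshold of 0.1, and ranged from 0 to 3 when 1 library was left out, with 3 without day 10 replicate 1. Calls in the pathway lists numbered 1 in edgeR and 2 in DESeq2, and ranged from 0 to 3 when 1 library was left out. The causes were not tested. For the cell death genes, 89 of 96 estimates kept their direction and their side of the threshold. The 5 that turned were those of Drice without day 10 replicate 3 (0.01), day 40 replicate 2 (0.0040) or day 40 replicate 3 (0.072) and of the Dark group without day 10 replicate 1 (-0.04) or day 40 replicate 3 (-0.077). Leaving out 1 library in turn gave -0.26 to 0.072 for Drice and -0.077 to 0.15 for the Dark group. The other 2 were the Dcp-1 group in DESeq2 (adjusted p = 0.0329) and with the replicate block (log2 change -0.52, adjusted p = 0.0590).

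Deviations of same-numbered libraries from their age means correlated at -0.02, -0.01 and 0.16 across genes, and not every library correlated best with its own number. These values gave no sign that replicate numbers pair the libraries. With so few libraries per age they cannot exclude a pairing. With the replicate block edgeR called 464 genes and 0 usage features. Low counts limit rpr, the Damm group and the junctions, and values of shared rows belong to no single gene.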
